A study of Mus musculus with 8 samples.

Results

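The genes described here are 40 genes of mitosis and chromosome segregation, out of 49315 genes counted, in epidermis isolated from back skin of mice that were 22 months old. They were taken by name: cyclins and Cdk1, mitotic kinases, condensin subunits, kinetochore and spindle proteins, partners of the anaphase promoting complex and cytokinesis proteins, with Mki67, Top2a, Foxm1 and Hmmr. All 40 were found by 1 Ensembl identifier each, and all 40 passed the filter on low counts. RNA sequencing gave 5 libraries labelled Tgfa KO and 3 labelled WT. The labels give the tissue as epidermis and the cell type as keratinocytes, and the sources used here do not give the strain, the targeted allele or whether a library is 1 animal. The Tgfa protein is a secreted growth factor that binds the EGF receptor. The title of the series speaks of hair follicles and hair loss with age. The libraries were compared by their genotype labels.

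In the epidermis, dividing cells lie mainly in the basal layer and in growing hair follicles, and cells stop dividing as they move towards the surface. Many genes of mitosis are transcribed in G2 phase and mitosis and are low in resting cells. In other cells, this wave of transcription is known to depend on the MuvB complex with B-MYB and FOXM1, which acts through the cell cycle homology region (CHR) in promoters, often together with CCAAT boxes bound by NF-Y. The summed level of such genes therefore follows the number of dividing cells as well as transcription per cell, and fewer cells of a type cannot be told apart from less RNA per cell in bulk samples.

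Total counts were 5313552 to 17417500 in the Tgfa KO libraries and 12968728 to 18292303 in the WT libraries. Tgfa itself had 34.4 to 132 CPM (counts scaled to the library total with edgeR's TMM factors) in the Tgfa KO libraries and 85.1 to 112 in the WT libraries, so its reads were present in every library and the groups overlapped (log2 fold change -0.61, SE 0.44, edgeR adjusted p = 0.899). Which part of the gene was targeted is not stated. The highest of these values, 132 CPM, was in the library labelled KO replicate 1 and goes against its label. Library names end in br for WT replicates 1 to 3, for the library labelled KO replicate 1 and for KO replicate 2, and in bl for KO replicates 3 to 5, with no meaning given. Counts on 1913 olfactory and vomeronasal receptor genes, which epidermis should not express, were 4.54 per kb of exon in KO replicate 2, against 0.122 to 0.258 among 4 further Tgfa KO libraries, and 0.144, 0.929 and 1.83 in WT replicates 1 to 3. At these rates, exons as long as those of the 40 genes would take counts equal to 19.3% of the members' summed count in KO replicate 2, to 0.12% to 0.57% in the remaining Tgfa KO libraries and to 0.30% to 6.20% in WT. For single members the share was larger, at 7.30% to 51.4% (median 23.4%) in KO replicate 2 and 1.13% to 50.2% (median 11.7%) in WT replicate 3. Basal keratin genes marked the tissue in every library, with Krt5 at 1877 to 4705 CPM in Tgfa KO and 1844 to 4423 CPM in WT.

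Most mitotic genes had higher mean levels in the Tgfa KO libraries, and none of them passed the test over all genes. The kinetochore gene Ndc80, the kinase gene Plk1 and the condensin gene Ncapg had the highest log2 fold changes of Tgfa KO over WT (2.15, 2.00 and 1.74), and Ttk, Prc1 and Smc4 had the lowest (-0.23, -0.23 and 0.03). Of the 40 members, 38 had a positive log2 fold change of Tgfa KO over WT (edgeR, fitted on all 19239 genes that passed the filter), where 61.9% of all genes tested were positive. The median was 1.36 over the members and 0.16 over all genes, a difference of 1.20. EdgeR called 0 members higher and 0 lower at an adjusted p under 0.05, in a comparison that called 0.00520% of all genes higher and 0% lower. Their edgeR adjusted p-values ran from 0.330 to 0.987. At an unadjusted p under 0.05, 32 members were higher and 0 lower, beside 4.44% of all genes higher. Without WT replicate 1 that number was 19, beside 2.53%, and with the name ending of the libraries as a covariate it was 11, beside 5.31%, with a member median of 0.93. Limma voom also called 0 members and 0% of all genes, with 31 members higher at an unadjusted p under 0.05, beside 4.21% of all genes. DESeq2 called 4 higher (Top2a, Ncapg, Ncapd2 and Tpx2), where it called 0.226% of all genes higher and 0.0930% lower. The 95% interval of the log2 fold change lay above 0 for 33 members and above the median of all genes for 28.

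**Figure D1:**
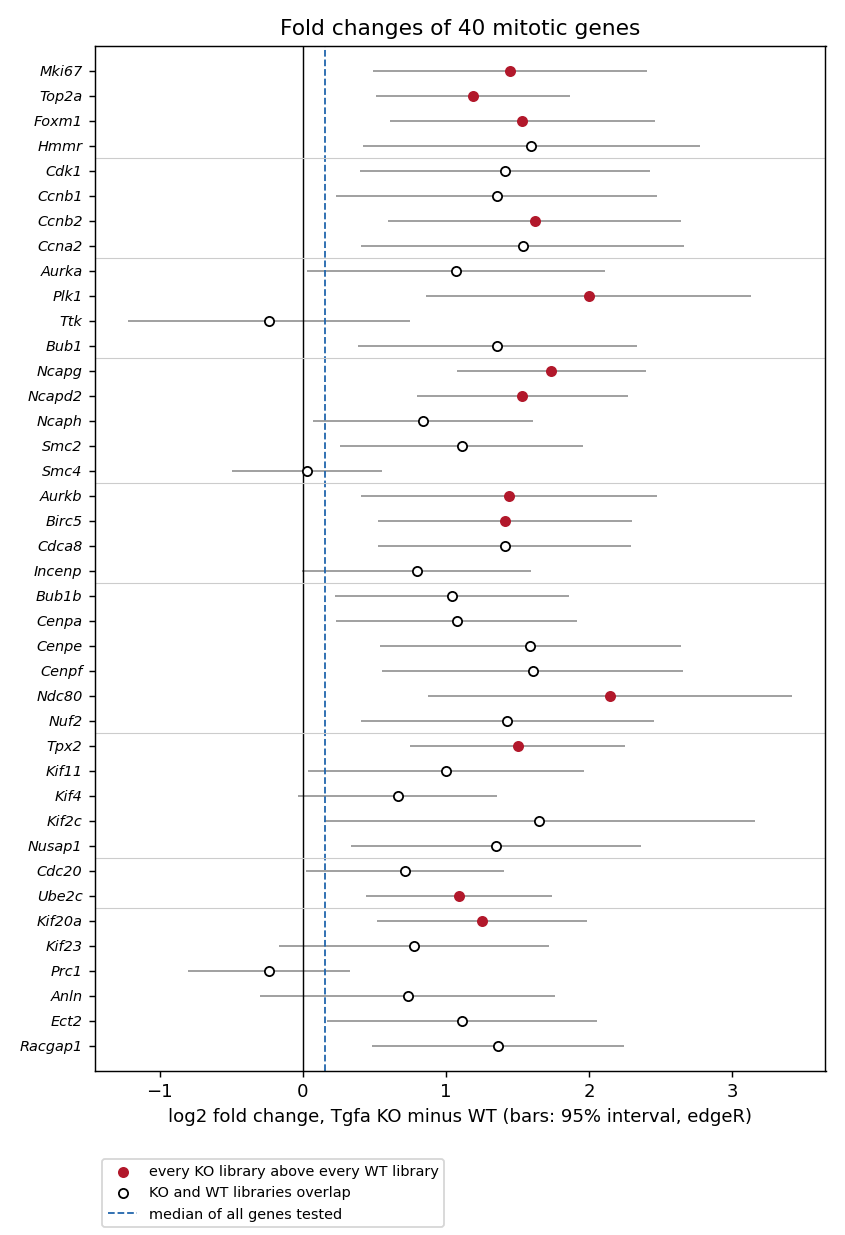
Log2 fold change of Tgfa KO over WT on the horizontal axis for the 40 genes (rows, grouped by role), with 95% intervals from edgeR on 5 Tgfa KO and 3 WT libraries. Filled points mark the 13 genes whose Tgfa KO libraries all lie above every WT library, the dashed line is the median of all genes tested (0.16), and Ttk, Prc1 and Smc4 lie near 0.

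The members were read against the libraries as well as against the group means. In 13 of 40 members (32.5%) every Tgfa KO library was above every WT library, against 3.40% of all genes tested, and in 0 members every Tgfa KO library was below, against 1.75%. Without the library labelled KO replicate 1 the count above was 26, against 9.34% of all genes, and without WT replicate 3 the count below was 1, against 6.96%. The 13 were Mki67, Top2a, Foxm1, Ccnb2, Plk1, Ncapg, Ncapd2, Aurkb, Birc5, Ndc80, Tpx2, Ube2c and Kif20a. In another 17 members 4 of 5 Tgfa KO libraries were above the highest WT library. The count was 3 libraries for 6 members, 2 libraries for Smc4 and Anln, and 0 for Ttk and Prc1.

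The level was uneven among the Tgfa KO libraries. Summed over the 40 genes, the level was 709, 870, 1500, 1620 and 781 CPM in KO replicates 1 to 5, where replicate 1 is the library labelled KO replicate 1, and 563, 708 and 489 CPM in WT replicates 1 to 3. KO replicates 3 and 4 thus stood far above the rest, and the library labelled KO replicate 1 was level with WT replicate 2. KO replicate 4 held the highest value of 27 members and KO replicate 3 that of 7, while WT libraries held the lowest value of 37 members. The mean level on a log2(CPM + 0.5) scale was 4.10 ± 0.54 in Tgfa KO (SD, n = 5) and 3.02 ± 0.25 in WT (SD, n = 3). The lowest Tgfa KO value was 3.49, in the library labelled KO replicate 1, and the highest WT value was 3.31, in WT replicate 2. As a share of all counts, without scaling, the 40 genes took 0.0553%, 0.0942%, 0.156%, 0.174% and 0.0811% in KO replicates 1 to 5 and 0.0550%, 0.0706% and 0.0483% in the WT libraries. On that scale the library labelled KO replicate 1 lay among the WT libraries.

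**Figure D2:**
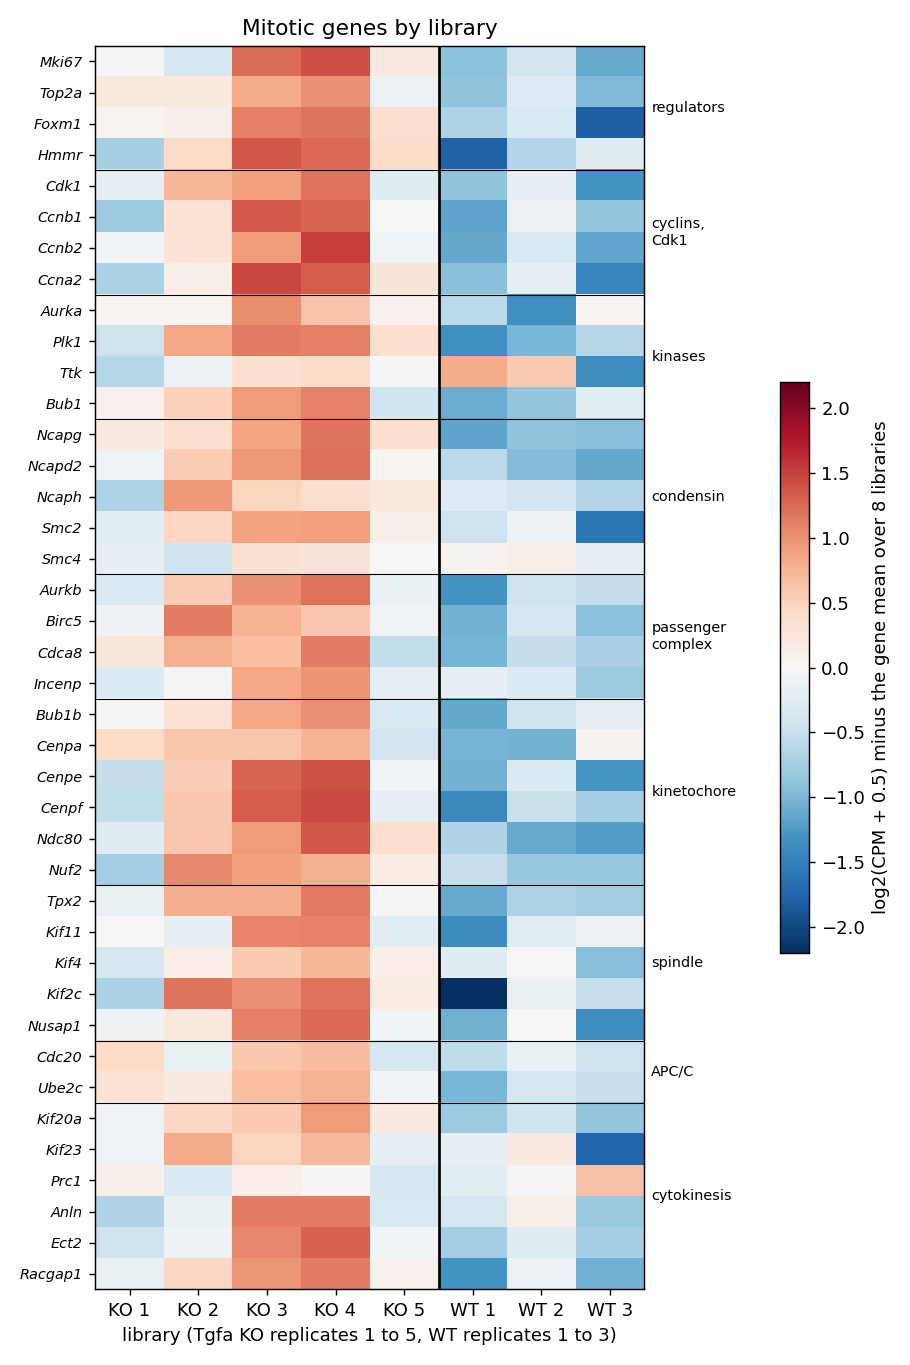
Each row is 1 of the 40 genes and each column 1 library, with 5 Tgfa KO libraries on the left and 3 WT libraries on the right. Colour gives log2(CPM + 0.5) minus the gene's mean over the 8 libraries, red above and blue below, with KO replicates 3 and 4 highest in 34 of 40 rows.

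Marker levels of cell types of the skin were set beside these values. The 4 basal keratinocyte markers (Krt5, Krt14, Itga6 and Col17a1) summed to 6236, 4623, 11969, 11887 and 9620 CPM in KO replicates 1 to 5 and to 11039, 8753 and 3467 CPM in WT replicates 1 to 3, so the groups overlapped. The 3 suprabasal markers (Krt1, Krt10 and Lor) summed to 17535, 5439, 14356, 12589 and 14325 CPM in KO replicates 1 to 5 and to 10511, 8353 and 5442 CPM in WT replicates 1 to 3, with 4 of 5 Tgfa KO libraries above every WT library. Per 1000 CPM of the basal markers, the mitotic genes had 114, 188, 125, 136 and 81.2 CPM in the Tgfa KO libraries and 51.0, 80.9 and 141 CPM in the WT libraries. On this ratio WT replicate 3 lay above all Tgfa KO libraries except KO replicate 2. The 4 markers of dendritic epidermal T cells (Trdc, Cd3e, Cd3g and Trdv4), lymphocytes that live in mouse epidermis, summed to 16.3, 44.6, 67.3, 70.2 and 36.9 CPM in KO replicates 1 to 5 and to 34.5, 41.8 and 19.3 CPM in WT replicates 1 to 3, highest in the same libraries as the mitotic genes. Hair matrix markers (4 genes) summed to 37.0 to 91.5 CPM in Tgfa KO and 45.0 to 56.6 in WT, and the sum was lowest in KO replicates 3 and 4. Dlx3 gave most of it there (27.1 of 37.0 and 28.2 of 38.6 CPM) and was itself lowest in KO replicate 2 (19.6). Msx2 was lowest in KO replicates 3 and 4 (5.50 and 5.76 CPM, against 6.25 to 9.51 elsewhere). Hoxc13 had 3.31 and 4.22 CPM in KO replicates 3 and 4, above its 1.17 to 2.84 in WT. It was higher still in KO replicates 2 and 5 (6.25 and 6.82), and its lowest value was 0.96, in the library labelled KO replicate 1. Lef1 had 1.13 and 0.40 CPM in KO replicates 3 and 4, within a range of 0.29 to 15.63 over all libraries. Langerhans cell markers (4 genes) summed to 182 to 715 CPM in Tgfa KO and 508 to 744 in WT. Sebocyte markers (3 genes) summed to 442 to 666 CPM in Tgfa KO and 546 to 742 in WT, nearly all from Scd1 (425 to 645 and 542 to 738). In limma voom with library weights, Krt1 (1.33, adjusted p = 0.0264) and the sebocyte marker Mgst1 (1.58, adjusted p = 0.0247) rose and the Langerhans marker Cd207 (-1.18, adjusted p = 0.0192) fell, and edgeR called none of the markers in these lists. In the weighted fit the suprabasal gene Krt10 (0.40) had the sign of Krt1 and Lor (-0.83) the opposite one. The sebocyte gene Awat2 (1.05) had the sign of Mgst1 and Scd1 (-0.35) the opposite one. The Langerhans genes Cd74, H2-Aa and H2-Ab1 had -0.80, -0.97 and -0.76, the sign of Cd207. None of these further markers passed the threshold. Endothelial markers (4 genes) stood at 47.8 CPM in KO replicate 2, at 2.2 to 4.3 in the remaining Tgfa KO libraries and at 1.1 to 9.6 in WT, with Emcn at 0 in KO replicate 5 and WT replicate 1. Fibroblast markers summed to 39.8, 74, 3.9, 20.3 and 33.1 CPM in KO replicates 1 to 5. In WT they summed to 34.1 to 39.6. Bulge markers summed to 397 to 670 CPM in Tgfa KO and 310 to 1175 in WT. Melanocyte markers had 7.8 to 21.5 CPM in Tgfa KO and 7 to 17.2 in WT. Neutrophil and macrophage markers had 17.7 to 57.5 and 29.4 to 42.1. Mast cell markers had 21.5 CPM in KO replicate 2, 1.9 to 3.1 in the remaining Tgfa KO libraries and 1.5 to 4.1 in WT. The part of these cell types in the mitotic values was not tested.

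Mki67 and Top2a are the members most used to mark dividing cells. Mki67 (ENSMUSG00000031004, GRCm38 chromosome 7, 135689784 to 135716361) encodes Ki-67, a protein that coats mitotic chromosomes. It had 133, 104, 322, 365 and 157 CPM in KO replicates 1 to 5 and 73.1, 102 and 63.0 CPM in WT replicates 1 to 3. All Tgfa KO values were above all WT values, though KO replicate 2 exceeded WT replicate 2 by little. The log2 fold change was 1.45 (SE 0.43, edgeR adjusted p = 0.580), against 0.52 when the br libraries alone were fitted and 0.58 when the fit had the name ending as a covariate. Top2a (chromosome 11, 98992943 to 99024189) encodes the topoisomerase that untangles sister DNA. It had 64.1, 63.7, 95.3, 110 and 49.5 CPM in Tgfa KO and 28.9, 44.3 and 27.3 CPM in WT, again without overlap (log2 fold change 1.19, SE 0.30, adjusted p = 0.538). Foxm1, which encodes the transcription factor of the G2 and mitotic programme, and Hmmr, which encodes a spindle protein, had log2 fold changes of 1.53 and 1.60.

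Cyclins and Cdk1 form the kinase that drives entry into mitosis, and all 4 members had positive values (median 1.48, range 1.35 to 1.62). Ccnb2 (ENSMUSG00000032218, chromosome 9, 70407692 to 70421547) encodes cyclin B2. It had 5.68, 7.47, 11.9, 18.03 and 5.64 CPM in Tgfa KO and 2.46, 4.63 and 2.42 CPM in WT, without overlap (log2 fold change 1.62, SE 0.46, edgeR adjusted p = 0.579). For Cdk1, Ccnb1 and Ccna2 the groups overlapped, and the log2 fold changes were 1.41, 1.35 and 1.54. Ccna2, which encodes cyclin A2, is 1 of 16 members that overlap a gene on the opposite strand, with Mki67, Top2a, Plk1, Ncapg, Smc2, Cdca8, Cenpf, Kif11, Kif4, Nusap1, Cdc20, Ube2c, Kif20a, Prc1 and Ect2. The strand setting of the counting was not stated, so reads of such partners cannot be told apart.

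Mitotic kinases held both a gene near the top of the members and the lowest one. Plk1 (ENSMUSG00000030867, chromosome 7, 122159439 to 122169873) encodes polo-like kinase 1, which acts at centrosomes, kinetochores and the midzone. It had 2.06, 5.90, 7.19, 7.13 and 4.04 CPM in Tgfa KO and 0.90, 1.26 and 1.80 CPM in WT. The lowest Tgfa KO value, in the library labelled KO replicate 1, rested on 28 counts, and the groups did not overlap (log2 fold change 2.00, SE 0.51, edgeR adjusted p = 0.553). Aurka, the aurora kinase of the spindle poles, and Bub1, a checkpoint kinase, had log2 fold changes of 1.07 and 1.36. Ttk (ENSMUSG00000038379, chromosome 9, 83834689 to 83872389) encodes MPS1, the kinase that starts the spindle checkpoint. It had 30.4, 43.6, 61.5, 63.2 and 46.1 CPM in Tgfa KO and 83.7, 70.9 and 18.1 CPM in WT. WT replicate 3 was the lowest library and the other WT libraries the highest, so the groups overlapped (log2 fold change -0.23, SE 0.44, adjusted p = 0.942).

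Condensin I compacts chromosomes and is built of Smc2, Smc4 and the non-SMC subunits Ncapd2, Ncapg and Ncaph. Its 5 genes differed in their values. Ncapg (ENSMUSG00000015880, chromosome 5, 45669919 to 45700546) had the smallest edgeR p of all members, with 10.2, 11.5, 16.6, 20.7 and 11.5 CPM in Tgfa KO and 3.69, 4.56 and 4.46 CPM in WT. Every Tgfa KO library was more than 2 times the highest WT library (log2 fold change 1.74, SE 0.30, 95% interval 1.08 to 2.40, edgeR adjusted p = 0.330). In KO replicate 2 this included background, as the receptor gene rate would equal 48.6% of its 66 counts. That share was 9.51% in WT replicate 2 and 22.6% in WT replicate 3. Ncapd2 had a log2 fold change of 1.53, Smc2 of 1.11 and Ncaph of 0.84. Smc4 (ENSMUSG00000034349, chromosome 3, 69004738 to 69034623), which encodes the other SMC subunit, had 66.8, 56.3, 96.3, 93.0 and 76.7 CPM in Tgfa KO and 80.3, 83.2 and 65.7 CPM in WT. Its groups overlapped and 0 lay inside the interval (log2 fold change 0.03, SE 0.23, 95% interval -0.50 to 0.55, edgeR adjusted p = 0.987); DESeq2, RLE and upper quartile scaling turned its sign. Per length, Smc4 averaged 37.6 ± 18.4 TPM (counts scaled for exon length and library total) in Tgfa KO (SD, n = 5) and 37.99 ± 6.93 in WT (SD, n = 3), while Ncapg averaged 5.04 ± 2.95 TPM in Tgfa KO and 1.54 ± 0.067 TPM in WT.

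**Figure D3:**
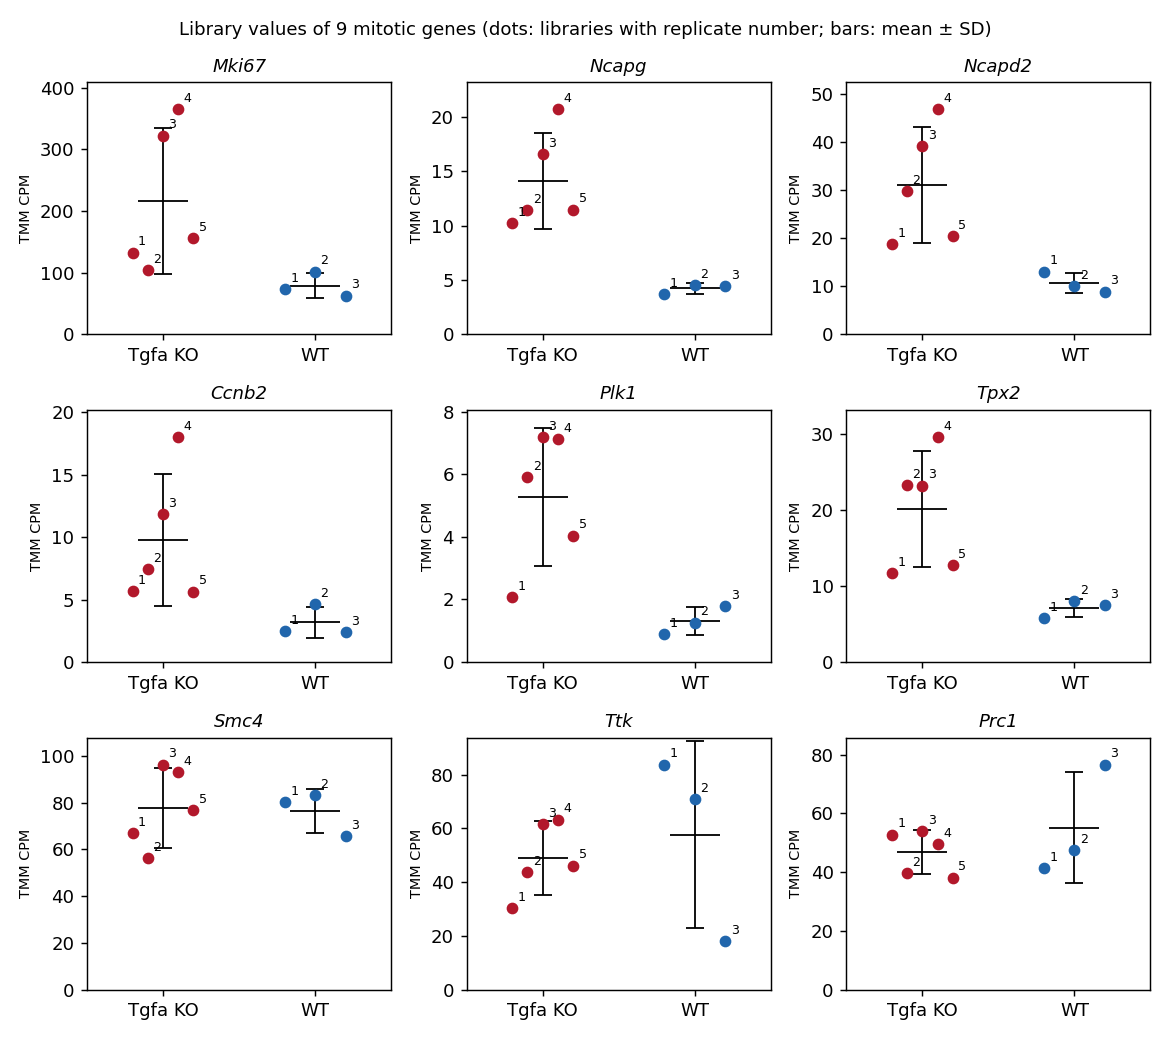
TMM-scaled CPM of 9 members in every library, with Tgfa KO on the left and WT on the right of each panel; dots are libraries with their replicate number, and bars are the mean ± SD. Mki67, Ncapg, Ncapd2, Ccnb2, Plk1 and Tpx2 do not overlap between the groups, and Smc4, Ttk and Prc1 do.

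The chromosomal passenger complex, made of aurora B, survivin, borealin and INCENP, corrects attachments of chromosomes to the spindle. Its 4 genes were all positive (median 1.41). Cdca8, which encodes borealin, had 7.44, 11.1, 10.1, 14.1 and 4.11 CPM in Tgfa KO and 2.80, 4.17 and 3.60 CPM in WT, so that KO replicate 5 lay just below WT replicate 2 (log2 fold change 1.41, SE 0.40, edgeR adjusted p = 0.571). Aurkb and Birc5, which encode aurora B and survivin, had log2 fold changes of 1.44 and 1.41 and did not overlap. Incenp, the scaffold and the gene of the complex with the highest level per length, had 14.4, 17.4, 32.6, 35.9 and 15.6 CPM in Tgfa KO and 15.7, 14.4 and 10.005 CPM in WT. Its groups overlapped, and its log2 fold change was 0.80 (SE 0.36, adjusted p = 0.811).

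Kinetochore genes had the highest median of the roles, at 1.51, and all 6 were positive. Ndc80 (ENSMUSG00000024056, chromosome 17, 71496100 to 71526857) encodes the kinetochore protein that grips microtubules, and had the largest log2 fold change of the members. It had 1.70, 3.47, 4.56, 6.28 and 2.85 CPM in Tgfa KO and 1.18, 0.73 and 0.63 CPM in WT, from 20 to 110 counts in Tgfa KO and 8 to 21 in WT. The groups did not overlap at these low counts (log2 fold change 2.15, SE 0.57, edgeR adjusted p = 0.563). Nuf2, its partner in the same complex, had a log2 fold change of 1.43. Bub1b, which encodes the checkpoint protein BUBR1, had 13.4, 17.4, 25.2, 28.4 and 10.8 CPM in Tgfa KO and 6.05, 9.92 and 11.8 CPM in WT, with KO replicate 5 below WT replicate 3 (log2 fold change 1.04, SE 0.37, adjusted p = 0.683). Cenpa, the centromeric histone H3 variant, had a log2 fold change of 1.08, and the large proteins' genes Cenpe, a kinetochore motor, and Cenpf had 1.59 and 1.61.

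Among spindle proteins, Tpx2 separated the groups and Kif11 did not. Tpx2, which encodes an activator of aurora A that nucleates microtubules, had 11.7, 23.3, 23.3, 29.7 and 12.8 CPM in Tgfa KO and 5.82, 8.004 and 7.50 CPM in WT (log2 fold change 1.502, SE 0.34, edgeR adjusted p = 0.431). Kif11, the motor that pushes spindle poles apart, had 18.28, 15.98, 38.8, 39.1 and 15.2 CPM in Tgfa KO and 6.60, 15.2 and 16.6 CPM in WT. KO replicates 3 and 4 were far above WT replicate 3 there, the library labelled KO replicate 1 slightly above it and the other Tgfa KO libraries below it (log2 fold change 0.998, SE 0.43, adjusted p = 0.793). The chromosome motor gene Kif4, Nusap1, which encodes a spindle microtubule protein, and Kif2c, which encodes a microtubule depolymerase, had log2 fold changes of 0.66, 1.35 and 1.65. Kif2c rested on 7 counts in WT replicate 1.

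The anaphase promoting complex ends mitosis by marking securin and cyclin B for destruction. Ube2c, its ubiquitin-conjugating enzyme, had 10.9, 10.1, 14.1, 15.2 and 8.35 CPM in Tgfa KO and 4.09, 6.48 and 5.94 CPM in WT, without overlap (log2 fold change 1.09, SE 0.29, edgeR adjusted p = 0.553). Cdc20, its activator, had 13.6, 8.86, 15.2, 16.2 and 7.52 CPM in Tgfa KO and 6.60, 8.86 and 7.03 CPM in WT. KO replicates 2 and 5 did not exceed the highest WT library (log2 fold change 0.71, SE 0.31, adjusted p = 0.788).

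Of the cytokinesis genes 5 of 6 were positive, with a median of 0.95 and a range of -0.23 to 1.37. Kif20a, a motor of the central spindle, had 5.45, 8.16, 8.88, 11.5 and 6.75 CPM in Tgfa KO and 3.13, 4.17 and 2.97 CPM in WT, without overlap (log2 fold change 1.25, SE 0.33, edgeR adjusted p = 0.553). Racgap1 and Ect2, which control the GTPase RhoA at the division plane, had log2 fold changes of 1.37 and 1.116, and Kif23, the motor partner of Racgap1, had 0.78. Anln encodes anillin, the scaffold of the contractile ring. The gene had 42.3, 59.9, 148, 148 and 53.4 CPM in Tgfa KO and 51.3, 74.2 and 37.99 CPM in WT, so only KO replicates 3 and 4 were above all WT libraries (log2 fold change 0.73, SE 0.46, adjusted p = 0.881). Among libraries ending in br its log2 fold change was -0.19.

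Prc1 (ENSMUSG00000038943, chromosome 7, 80294450 to 80316259), which encodes the bundler of midzone microtubules, did not share this pattern. It had 52.8, 39.6, 54.0, 49.5 and 38.1 CPM in Tgfa KO and 41.3, 47.4 and 76.6 CPM in WT. WT replicate 3 was the highest library and the others overlapped (log2 fold change -0.23, SE 0.25, edgeR adjusted p = 0.932). Prc1 shares its locus with Rccd1 and a noncoding RNA gene on the opposite strand. Library weights, and leaving out WT replicate 3 (0.07), turned the sign of its log2 fold change, and leaving out WT replicate 1 turned that of Ttk (0.14).

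Ttk, Prc1 and Smc4 also stood apart in how they varied over libraries. For 33 of 40 members, Pearson's r with the mean of the other 39 on the log2(CPM + 0.5) scale was above 0.8 over the 8 libraries, up to 0.987 for Cenpe, whereas it was -0.183 for Prc1, 0.265 for Ttk and 0.396 for Smc4. These values describe libraries that also share depth and composition. Per length, Mki67 had the highest mean over all libraries, at 43.5 TPM, followed by Smc4 (37.8), Ttk (27.3) and Anln (22.2), and Nuf2 had the lowest (1.96). Prc1 ranked 7 of 40 at 14.98 TPM. The 3 members with the lowest log2 fold changes were thus among the 7 with the highest level per length, and the 2 with the highest, Ndc80 and Plk1, ranked 38 and 31.

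Promoters of the members were searched for short motifs, as a description without a test. RefSeq windows (GRCm38.p6, 250 bases before to 50 after the start, the first listed for each gene) matched 33 members by symbol. The CHR letters TTTGAA, on either strand, were present in 26 of the 33 (78.8%), against 18.1% of 27025 promoters. CCAAT, on either strand, was present in 26 (78.8%) against 37.9%, and both motifs in 23 (69.7%) against 7.1%. Of the 33 CHR matches in members, 24 lay within 50 bases of the start. The E2F letters TTTGGCGC or TTTCCCGC were present in 2 (6.1%) against 1.6%. Each motif was counted on its own, whether or not it overlapped another, and a match is a run of letters, not a shown binding site.

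Stretches from 120 bases before to 15 bases after the start are printed below for the 3 members with the largest log2 fold changes (Ndc80, Plk1 and Ncapg), for Ccnb2, and for the lowest, Ttk and Prc1, so that both ends can be read side by side. Capitals mark TTTGAA or CCAAT on either strand, and all are written 5′ to 3′ along the gene.
Ndc80: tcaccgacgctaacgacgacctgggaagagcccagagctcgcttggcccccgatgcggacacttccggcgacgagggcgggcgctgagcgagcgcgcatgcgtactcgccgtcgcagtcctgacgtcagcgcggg
Plk1: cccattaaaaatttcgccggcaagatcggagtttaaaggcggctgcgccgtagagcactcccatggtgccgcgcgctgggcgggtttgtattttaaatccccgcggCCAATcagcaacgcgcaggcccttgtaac
Ncapg: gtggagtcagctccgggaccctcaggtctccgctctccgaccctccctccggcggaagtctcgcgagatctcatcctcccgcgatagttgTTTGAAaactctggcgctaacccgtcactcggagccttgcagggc
Ccnb2: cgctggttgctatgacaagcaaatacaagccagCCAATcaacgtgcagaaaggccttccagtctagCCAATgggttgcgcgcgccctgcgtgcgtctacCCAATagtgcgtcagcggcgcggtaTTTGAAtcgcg
Ttk: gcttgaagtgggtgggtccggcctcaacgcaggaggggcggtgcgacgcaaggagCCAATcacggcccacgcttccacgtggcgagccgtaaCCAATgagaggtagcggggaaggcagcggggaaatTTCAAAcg
Prc1: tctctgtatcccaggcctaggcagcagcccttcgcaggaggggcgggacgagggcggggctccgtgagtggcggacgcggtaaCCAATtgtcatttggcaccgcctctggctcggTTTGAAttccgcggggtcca
They are from chr17:71526843-71526977, minus strand; chr7:122159315-122159449, plus strand; chr5:45669805-45669939, plus strand; chr9:70421540-70421674, minus strand; chr9:83834569-83834703, plus strand; and chr7:80294331-80294465, plus strand. Ccnb2 held 3 CCAAT boxes and 1 CHR in this stretch, Ttk 2 and 1, and Prc1 1 and 1. Ndc80, with the largest log2 fold change, held neither in this stretch, and a TTTGAA match on its opposite strand lay 30 bases downstream of the start. Other matches in the windows also lay outside the printed stretch. They were TTTGAA for Plk1 at position 31, CCAAT for Ncapg at -176 on the opposite strand, and TTTGAA for Ccnb2 at -167. The matches of Ttk and Prc1 all lay inside it.

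The other genes of the cell cycle did not share 1 value. No gene of the 10 further lists passed the edgeR test at an adjusted p under 0.05. Of 25 other spindle and mitosis genes all 25 were positive (median 1.47), against 61.9% of all genes. At an unadjusted edgeR p under 0.05, 17 were higher and 0 lower, beside 4.44% of all genes higher. In 8 every Tgfa KO library was above every WT library, against 3.40% of all genes. At that p 8 of 25 other kinetochore, 3 of 10 G2/M and 5 of 33 DNA replication genes were higher and 0 lower. Every Tgfa KO library was above every WT library in 4, 2 and 1 genes of these lists. Ckap5, a microtubule polymerase, was the most abundant gene of the other spindle list. It averaged 149 ± 32.4 CPM in Tgfa KO (SD, n = 5) and 121 ± 4.79 in WT (SD, n = 3), a log2 fold change of 0.30. The kinesin gene Kif2a, next in abundance, had 0.06. Of 25 other kinetochore and checkpoint genes 23 were positive (median 0.95), and of 10 genes of G2/M control 9 were positive (median 0.54). By mean CPM over the 8 libraries, the most abundant genes of the kinetochore list were Hjurp, a loader of the centromeric histone, and Zw10, of the complex that brings dynein to kinetochores, with log2 fold changes of 0.22 and 0.15. In the G2/M list they were Wee1, a kinase that holds Cdk1 inactive, and Cdc25b, a phosphatase that activates it, with -0.08 and 0.25.

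The remaining lists had medians closer to that of all genes (0.16), of which 61.9% were positive. Among them were lists that also act in mitosis: condensin II, cohesin and sister separation, and the core of the anaphase promoting complex. The DNA replication list had 31 of 33 positive with a median of 0.41, and its most abundant genes Rrm1, of ribonucleotide reductase, and Rfc1, of the clamp loader, had log2 fold changes of 0.10 and 0.30. The 3 condensin II genes had a median of 0.25 (all positive), with the subunit genes Ncaph2 at 0.10 and Ncapd3 at 0.69. The 13 genes of cohesin and sister separation had a median of 0.22 (10 positive, range -0.19 to 1.44), with Wapl, a factor that releases cohesin, at -0.19 and Pds5a, a cohesin regulator, at -0.0002. The 13 core genes of the anaphase promoting complex had a median of 0.14 (10 positive), with the subunit genes Anapc1 at 0.26 and Cdc27 at -0.03. The 14 genes of G1 and S entry had a median of 0.14 (9 positive), with Ccnd2, a D-type cyclin, at -0.32 and Cdk6, its kinase partner, at 0.42. The 10 DREAM and MuvB genes, which hold mitotic genes silent in resting cells or activate them, had a median of 0.07 (5 positive). Their range was -0.56 to 0.95, with the subunit genes Rbbp4 and Lin54 at -0.16 and -0.56. The highest was Mybl2, which encodes B-MYB (0.95, SE 0.50, edgeR adjusted p = 0.836). Of the pocket protein and Cdk inhibitor genes 9 of 10 were tested, with a median of 0.06 (5 positive). In that list Cdkn1a, which encodes the inhibitor p21, averaged 225 ± 98.7 CPM in Tgfa KO and 356 ± 56.3 in WT (log2 fold change -0.66, edgeR adjusted p = 0.832), and Cdkn1b, which encodes p27, had -0.43. The difference between the mitotic genes and these lists was not tested.

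**Figure D4:**
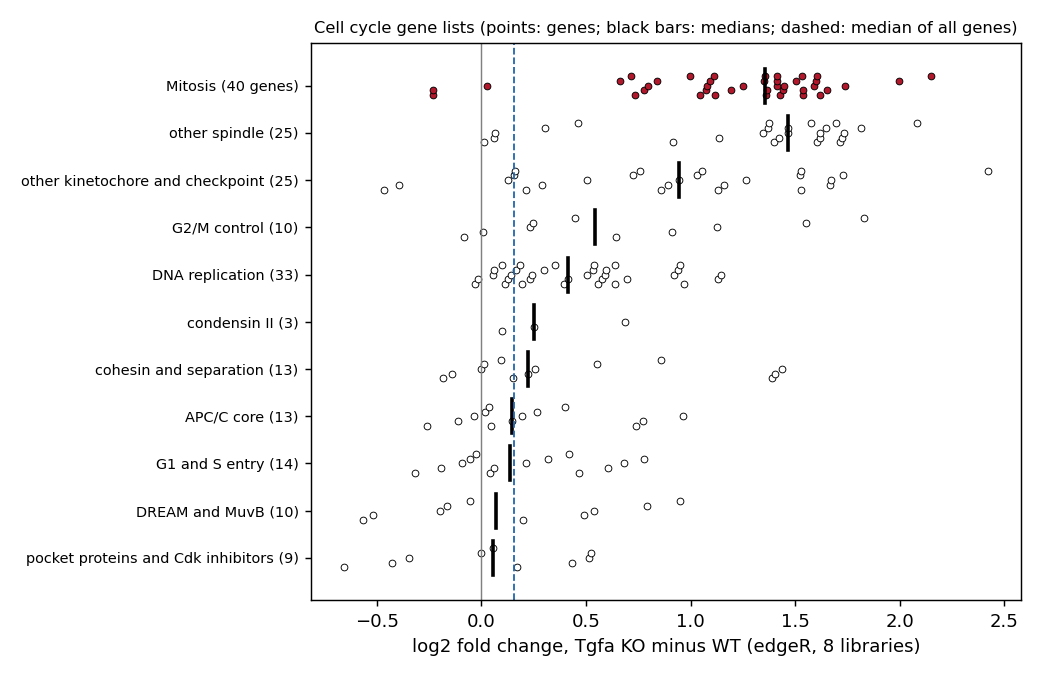
Log2 fold change of Tgfa KO over WT for the 40 mitotic genes (filled, top row) and 10 further cell cycle lists (open), with 1 point a gene, list medians as black bars and the median of all genes dashed. Medians were 1.36 for the mitotic genes, 1.47 for other spindle genes, 0.41 for DNA replication and 0.14 for G1 and S entry.

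Weighting libraries gave calls that edgeR did not. In limma voom with library weights, the library labelled KO replicate 1, KO replicate 2 and WT replicate 3 had weights of 0.28, 0.37 and 0.34, and the others 1.47 to 2.26. In this fit 23 of 40 members (57.5%) rose and 0 fell, where 3.39% of all genes were called higher and 3.07% lower. All 4 regulators and markers and all 6 kinetochore genes rose, as did 3 of 5 condensin, 3 of 6 cytokinesis, 2 of 4 kinase and 2 of 4 passenger complex genes. Among cyclins and Cdk1 only Ccna2 rose (1.60, limma adjusted p = 0.0320), among spindle proteins only Tpx2 (1.58, adjusted p = 0.0178), and of the anaphase promoting complex partners only Ube2c (1.21, adjusted p = 0.0280). The strongest of the member calls by p was Ncapg (1.91, adjusted p = 0.00575). Plk1, Ndc80 and Hmmr rose by 2.37, 2.27 and 2.21 on the log2 scale (adjusted p = 0.0195, 0.0373 and 0.0191). Of the other lists, 11 spindle genes, 5 kinetochore, 4 G2/M and 4 DNA replication genes rose, as did 1 condensin II gene and 2 core genes of the anaphase promoting complex, and 0 genes of these lists fell. Among the inhibitors Cdkn2b (0.92, limma adjusted p = 0.0348) and Cdkn2c (0.87, adjusted p = 0.0428) rose and Cdkn1a (-0.86, adjusted p = 0.0181) fell, and of the DREAM and MuvB genes Lin54 fell (-0.76, adjusted p = 0.0254).

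These calls rested on single libraries. With KO replicate 5 left out of the weighted fit, 36 members were called higher, beside 3.86% of all genes. The number was 31 (5.4% of all genes) without the library labelled KO replicate 1 and 29 (3.08%) without WT replicate 3. Leaving out KO replicate 2 kept 18 (3.66%), KO replicate 3 kept 1 (0.715%) and KO replicate 4 kept 1 (0.466%). Leaving out WT replicate 1 (0.287%) or WT replicate 2 (0%) gave 0 members. The member median lay between 1.06 and 1.70. In edgeR without the library labelled KO replicate 1, KO replicate 2 and WT replicate 3, a choice made after seeing the data, 14 members rose (5.25% of all genes were higher) and genotype then went with the name ending throughout. In that fit 29 members lay above WT without overlap, against 23.2% of all genes, and 1 below, against 22.6%.

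Within 1 name ending the members were higher by less. Among libraries ending in br (the library labelled KO replicate 1, KO replicate 2 and 3 WT), 36 of 40 members were positive, against 62.2% of all genes. The median log2 fold change was 0.84 over the members and 0.25 over all genes. EdgeR called 0 members there (4 higher and 0 lower at an unadjusted p under 0.05, beside 1.80% of all genes higher), and 0% of all genes. For some members given with library values, the log2 fold change there was below its value over all 8 libraries by more than 1.5 times. It was 0.96 for Ccnb2, 0.67 for Bub1b, 0.38 for Kif11 and 0.16 for Incenp. For others it fell by a smaller factor, to 1.48 for Plk1, 1.31 for Cdca8, 1.29 for Ncapg, 1.19 for Tpx2, 0.88 for Ube2c and 0.86 for Top2a. In 16 of 40 members both Tgfa KO libraries were above all WT libraries, against 8.62% of all genes tested. With the 3 Tgfa KO libraries ending in bl against the same WT libraries the member median was 1.43, and 38 were positive, against 48.5% of all genes. EdgeR called 0 members (34 higher and 0 lower at an unadjusted p under 0.05, beside 10.7% of all genes higher), where it called 0.0579% of all genes higher. In 25 members the groups did not overlap, against 16.9% of all genes. No WT library ends in bl, so the name ending and genotype cannot be told apart for those 3 libraries.

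**Figure D5:**
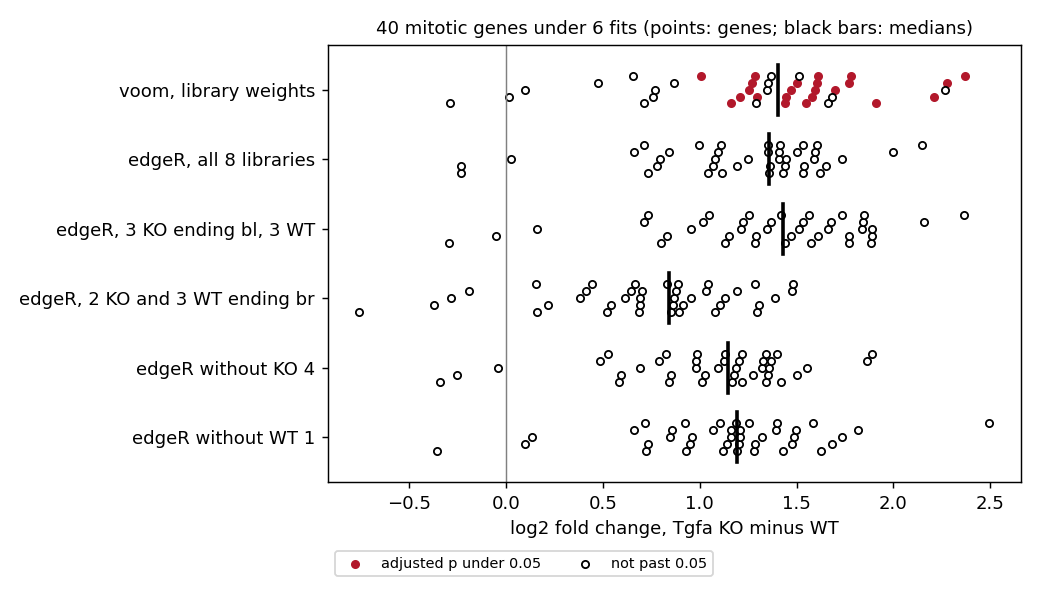
Log2 fold change of Tgfa KO over WT for the 40 genes under 6 fits (rows), with 1 point a gene, filled where the adjusted p is under 0.05, and medians as black bars. The medians are 1.41 with library weights, 1.36 in edgeR on all 8 libraries, 1.43 and 0.84 with Tgfa KO libraries of 1 name ending, 1.15 without KO replicate 4 and 1.19 without WT replicate 1.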

How the data were processed

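Per the labels' protocols, total RNA (Trizol, then a column) was treated with DNase and sequenced as paired ends on an Illumina NovaSeq after a NEBNext library kit. The authors deposited raw read counts per gene, 1 table a library and not normalized. The submitters' processing notes list the tools STAR 2.5.2b, Subread 1.5.2 with featureCounts, and Trimmomatic 0.36, and name both GRCh38 and GRCm38; settings, strandedness and the handling of multi-mapping reads were not given in the sources used here. The count files also hold a summed exon length for each gene, per the file headers, which TPM values use. Gene identifiers were matched to GENCODE M21 on GRCm38 (49056 of 49315 genes, all on the same chromosome), and coordinates are those of the files; 37 of the 40 members have the same start and end in both.

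The test was edgeR 4.0.16 under R 4.3.3 (quasi-likelihood, robust, TMM, filterByExpr, Benjamini-Hochberg adjustment over all genes tested, threshold 0.05), Tgfa KO against WT on all 8 libraries. CPM uses TMM factors, and SE values come from the quasi-likelihood fit. Alternatives were DESeq2 1.42.0, limma 3.58.1 voom with and without library weights, other normalizations and filters, the name ending, and each library left out. The scripts were tested on simulated data. Whether each library is its own animal is not stated, and p-values cover the spread among the libraries, which may be technical. Replicates were numbered in accession order. No libraries of a group agreed within sampling noise (lowest chi-square per gene 13.74). Intervals for single counts are not given, as they would cover counting error alone. The members and lists were chosen with earlier results of these data known, so no p is given for the list. Values in every library are given for the member of each role with the highest mean TPM or the smallest edgeR p, and for the 3 members with the largest and the 3 with the smallest log2 fold change; other lists are given by their 2 genes with the highest mean CPM over the 8 libraries and any called by edgeR. Mybl2 is named besides these, as the highest of its list. In the weighted fit the called genes of other lists are given as counts. The ratio to basal markers was chosen after seeing the data.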

Additional observations from a re-analysis of the deposited data

How the results depend on the processing

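Of the 40 members, 36 had a positive log2 fold change in each of 22 fits, which leave out the weighted fits with 1 library removed; the exceptions were Anln, Smc4, Prc1 and Ttk. The member median was 0.84 to 1.49 over these 22 fits and 1.06 to 1.70 over the 8 weighted fits with 1 library removed. Members called higher numbered 0 in edgeR on all libraries under each normalization, filter and name ending fit and with each library left out. They numbered 4 in DESeq2 (0.226% of all genes) and 23 in limma voom with library weights (3.39%). In edgeR leaving out the library labelled KO replicate 1, KO replicate 2 and WT replicate 3 (chosen after seeing the data) they numbered 14 (5.25%). With library weights and 1 library left out the count ran from 0 to 36, and the share of all genes from 0% to 5.4%. Members lower were called in 0 fits.

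Over all genes, the 1 gene called higher in edgeR became 0 in limma voom, with RLE or upper quartile factors and among libraries ending in br, 8 (and 1 lower) without a filter, 10 (and 11 lower) with Tgfa KO libraries ending in bl, 97 (and 40 lower) in DESeq2, 653 (and 590 lower) with library weights and 935 (and 948 lower) without the 3 libraries named above. Leaving out 1 library gave 0 to 1 genes higher and 0 to 1 lower.

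Members with every Tgfa KO library above every WT library numbered 10 with library totals (2.39% of all genes). They numbered 11 with upper quartile factors (2.99%) and 12 without a filter (1.45%). The number was 25 with Tgfa KO libraries ending in bl (16.9%) and 29 without the 3 libraries (23.2%). With 1 library left out it was 13 to 26 (3.11% to 9.34%). Members with every Tgfa KO library below numbered 0 to 1 with 1 library left out (1.76% to 7.21% of all genes) and 1 without the 3 libraries (22.6%). In both cases this was Ttk, named after its values were seen.

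Smc4 had a log2 fold change of -0.0073 in DESeq2, -0.0079 with RLE factors, -0.0255 with upper quartile factors, -0.31 with the name ending as a covariate, -0.37 among libraries ending in br and -0.14 to 0.10 with 1 library left out. Anln had -0.0944 with the name ending as a covariate and -0.19 among libraries ending in br. Prc1 had 0.016 with library weights, 0.06 without the 3 libraries and -0.63 to 0.0703 with 1 library left out. Ttk had -0.67 to 0.14 with 1 library left out. The cause of these changes was not tested.

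No paired analysis was possible because the labels give no replicate numbers. Subtracting the receptor gene rate times exon length from every count (chosen after seeing the data) gave a member median of 1.36 and 0 members called. The shallowest library, KO replicate 2, had 20 to 601 counts per member, which limits the precision of low members such as Ndc80.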
